A study of Mus musculus with 12 samples.

Results

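Knockdown of ISG20 under low oxygen was examined in EMT6 cells, a mouse mammary carcinoma line that grows in culture as an adherent monolayer. The comparison set 3 libraries of ISG20 knockdown cells (shISG20) at 1% O2 against 3 libraries of control cells (shNTC) at 1% O2, that is 6 of the 12 libraries of the series. Both had been kept at 1% O2 for 48 hours, and the other 6 libraries came from shISG20 and shNTC cells at 20% O2. Of those 6, the label of shISG20 replicate 3 gives 484 hours and the labels of the other 5 give 48 hours, as does the shared protocol. That library was kept, and values that moved by over 1.5 times or lost a call without it are given below. The labels call the genotype of the shNTC cells wild type and give neither the hairpin sequences nor their number. The cells of both arms were subclones, whose number per arm the labels do not give, so that an effect of losing ISG20 cannot be told apart from other differences between the subclones used. The labels number the libraries as biological replicates and do not state that they were grown separately. The p-values therefore refer to the spread between these libraries, and part of that spread may be technical. Of the 60683 rows of the deposited table, whose values are transcript abundances scaled to a fixed library total (TPM), 12879 reached 1 TPM in at least 3 of the 6 libraries and were tested, and 42000 were at 0 in all 6.

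ISG20 is an enzyme induced by interferon that degrades single-stranded RNA and DNA from the 3' end and is best known for restricting RNA viruses. Low oxygen stabilises the hypoxia-inducible factors (HIF), which turn on genes of glycolysis, angiogenesis and matrix remodelling. Prolonged low oxygen also burdens protein folding in the endoplasmic reticulum (ER) and can engage the unfolded protein response and the integrated stress response, in which phosphorylated eIF2 alpha favours translation of the transcription factor ATF4.

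RNA was sequenced from total RNA, and the reads of these mouse cells were counted on human genes. A gene that has diverged between the species can therefore sit near 0, a row named after a pseudogene can share reads with its gene, and levels were compared between libraries and not between genes. The reads behind the TPM were recovered from the table and summed to 3173991 to 3779498 in the shISG20 libraries and 3520400 to 4765241 in the shNTC libraries at 1% O2. Rows at 1 TPM or more numbered 12479 to 12627 in the shISG20 libraries and 12803 to 12908 in the shNTC libraries, and the part of this difference in the counts below was not tested. Of the tested rows 7848 matched a mouse gene by symbol or synonym. Rows of the whole table with such a match held 82.7 to 83.5% of the reads of a library at 1% O2. They held only 45.6 to 46.8% of its TPM, the scale of all levels and tests below unless stated otherwise. Oxygen level set the first principal component of all 12 libraries (57.1% of the variance), and shISG20 and shNTC libraries lay apart on the second (8.14%). Read numbers given with a gene are totals of recovered reads in the 3 libraries of its group.

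ISG20 (ENSG00000172183) itself stood at 0.413, 0.595 and 0.69 TPM in the shISG20 libraries at 1% O2, against 8.81, 8.44 and 7.59 TPM in the shNTC libraries. The groups did not overlap, as for 4305 of the 12879 tested rows (33.4%). The means were 0.566 ± 0.14 TPM (19 reads) in shISG20 cells and 8.28 ± 0.623 TPM (334 reads) in shNTC cells (SD, n = 3 each). On the scale used for all tests, log2(TPM + 1), which understates changes of low genes, ISG20 fell by 2.57 (SE 0.165, limma adjusted p = 1.18e-05). The label of the knockdown therefore holds at the level of RNA in each library.

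At 1% O2 more rows were lower than higher in shISG20 cells. By limma, fitted over all 12 libraries with Benjamini-Hochberg adjustment over the 12879 rows and a threshold of 0.05, 2108 rows were called (16.4%). Of these 644 were higher (5.00%) and 1464 lower (11.4%) in shISG20 cells, so that 30.6% of the calls were higher. Among the 7848 rows that match a mouse gene, 392 were higher (4.99%) and 1239 lower (15.8%). These shares are the background beside which the counts of the lists below are to be read. The changes were mostly small: the median absolute log2 fold change of a called row was 0.47, and 44 rows were higher and 106 lower by 1 or more. Of these only 11 of the higher and 60 of the lower rows matched a mouse gene. Over all tested rows the median log2 fold change was -0.068, and over mouse-matched rows it was -0.113. The split of directions depended on the scaling, since median-of-ratios size factors gave 1009 higher and 1161 lower rows, 46.5% of the calls higher, around a median of -0.009. Without shNTC replicate 2 the counts were 428 higher and 804 lower, and without shISG20 replicate 3 they were 429 and 969. With only the 6 libraries at 1% O2 in the fit they were 394 and 692. Genes given below as not called, like those marked so, were named after their values were seen.

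**Figure D1:**
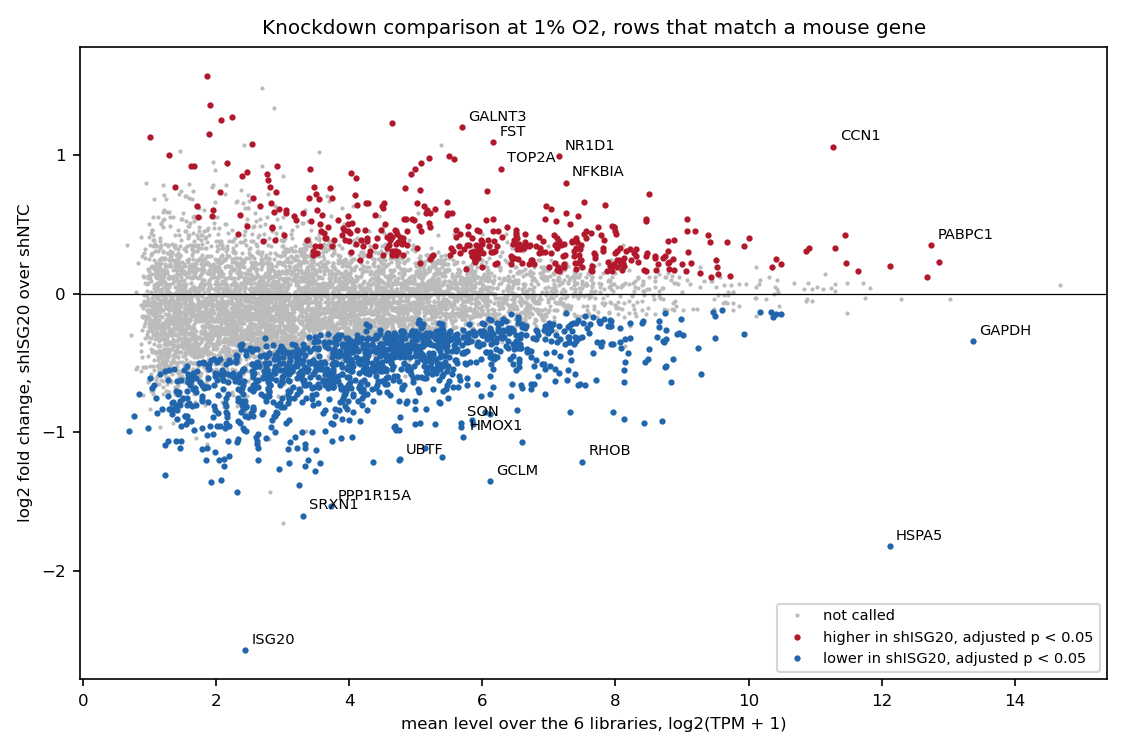
Log2 fold change of shISG20 over shNTC cells at 1% O2 (vertical) against the mean level over the 6 libraries on the log2(TPM + 1) scale (horizontal), 1 point for each of the 7848 mouse-matched rows, with higher calls in red, lower calls in blue and rows not called in grey. Lower calls outnumber higher ones (1239 against 392), ISG20 lies lowest, and HSPA5 is far below other rows of its level.

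**Figure D2:**
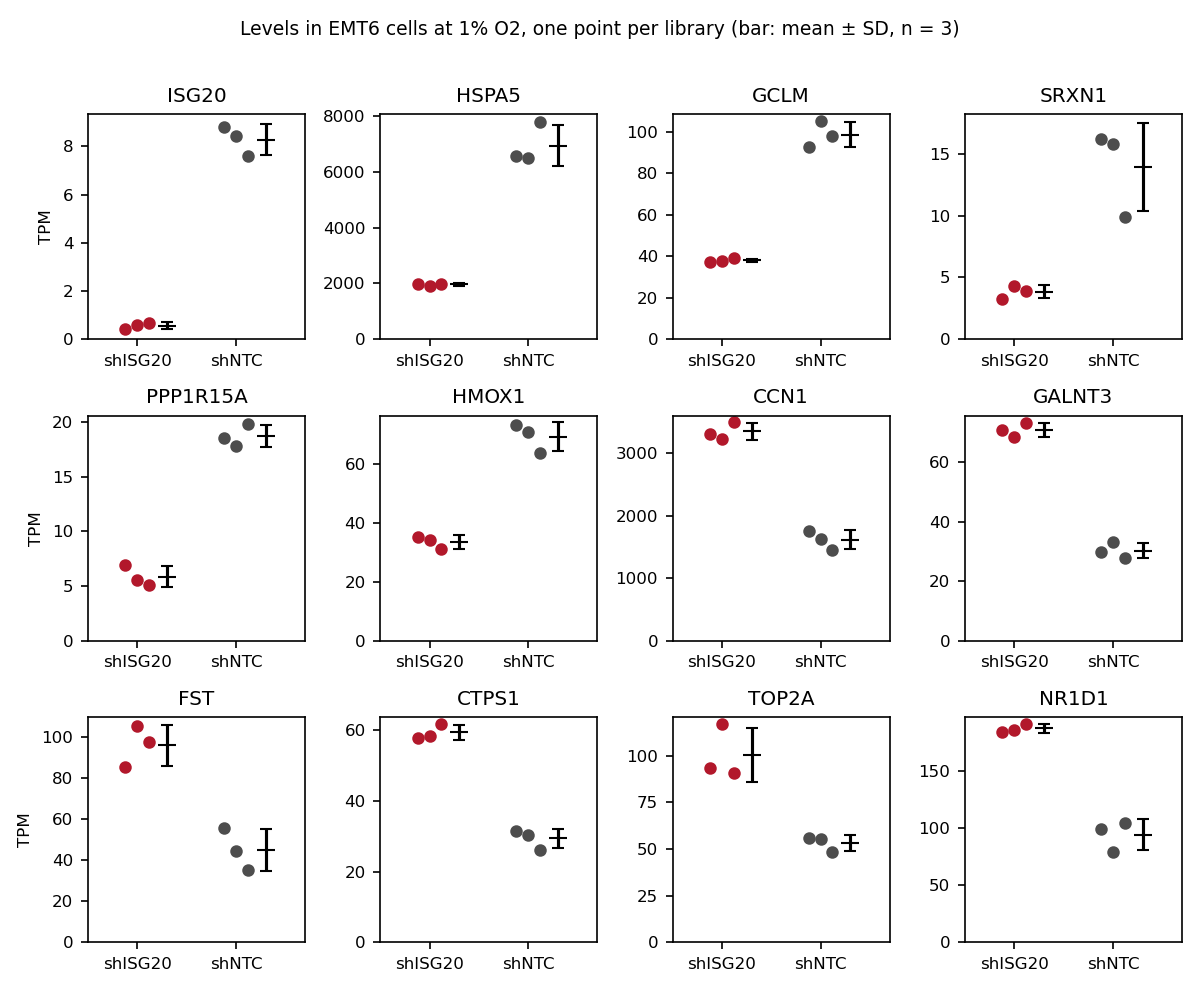
TPM of 12 genes in the 3 shISG20 libraries (red) and the 3 shNTC libraries (grey) at 1% O2, 1 point per library, with mean ± SD beside them on axes that start at 0. In every panel the groups do not overlap, as for 33.4% of all tested rows. A lack of overlap was also a condition for naming the highest and lowest rows. ISG20, HSPA5, GCLM, SRXN1, PPP1R15A and HMOX1 are lower and CCN1, GALNT3, FST, CTPS1, TOP2A and NR1D1 higher in shISG20 cells.

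The smallest p of the comparison belonged to HSPA5 (ENSG00000044574), also called BiP, the main HSP70 chaperone of the ER lumen and a sensor partner of the unfolded protein response. HSPA5 was at 1990, 1900 and 1995 TPM in the shISG20 libraries and at 6557, 6493 and 7769 TPM in the shNTC libraries, with 36492 reads in shISG20 and 150736 in shNTC cells. It fell by 1.82 on the log2 scale (SE 0.059, limma adjusted p = 1.03e-07). The row of its pseudogene HSPA5P1, named after its value was seen, had the similar log2 fold change of -1.83 and may hold reads of HSPA5. Other chaperones and folding enzymes of the ER were called in both directions. Protein disulfide isomerase PDIA3 was at 670, 655 and 695 TPM in shISG20 and 495, 489 and 496 TPM in shNTC libraries and rose by 0.45 (SE 0.037, limma adjusted p = 5.93e-05). PDIA6, another isomerase, averaged 531 ± 19.7 TPM in shISG20 cells and 405 ± 12.8 TPM in shNTC cells (SD, n = 3 each) and rose by 0.39 (adjusted p = 0.000773). HSP90B1, the HSP90 of the ER, averaged 2148 ± 77.8 TPM in shISG20 and 1713 ± 88.6 TPM in shNTC cells and rose by 0.33 (adjusted p = 0.00501). ERO1A, the oxidase that recharges the isomerases and a known HIF target, was at 244, 260 and 237 TPM in shISG20 and 328, 334 and 335 TPM in shNTC libraries and fell by 0.43 (adjusted p = 0.000623). In the list of ER chaperones and unfolded protein response, 7 of 25 tested members were higher (28%) and 3 lower (12%), with a median of 0.10. The remaining lower member was SEL1L (-0.39), of ER-associated degradation, named after its value was seen. The number of higher members was 3 without shNTC replicate 2 or without shISG20 replicate 3 and 12 by voom on the recovered reads, and HSPA5 was lower under every alternative run. The transducers XBP1 (-0.16), ATF6 (-0.10), ERN1 (0.16) and EIF2AK3 (-0.16) were not called.

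Whether promoters bear on this contrast was not tested. HSPA5 and several other ER chaperones are known targets of 1 element, the ER stress response element. It was searched as CCAAT and CCACG with 9 free bases between them, on both strands, in RefSeq promoter windows (250 bases before to 50 after a start, mouse build GRCm38.p6), of which 0.119% of 32851 hold it. Among ER list members with a window, it was found in 4 of 6 higher members (HSP90B1, CALR, CANX and PDIA6), in 1 of 3 lower members (HSPA5) and in 2 of 12 members not called. The call of CALR was lost with only the 6 libraries and without shNTC replicate 1 (0.18), shNTC replicate 2 (0.15) or shISG20 replicate 3 (0.13). The 250 bases before the start are shown for the member that fell most and for a member that rose, with the element in capitals, for Hspa5 at chr2:34771840-34772089 (+ strand) and Pdia6 at chr12:17266339-17266588 (+ strand).
Hspa5: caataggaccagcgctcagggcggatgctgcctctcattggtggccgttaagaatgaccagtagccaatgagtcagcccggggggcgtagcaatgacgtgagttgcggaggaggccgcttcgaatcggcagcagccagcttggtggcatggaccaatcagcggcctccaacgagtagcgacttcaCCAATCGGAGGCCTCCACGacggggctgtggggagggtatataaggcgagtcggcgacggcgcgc
Pdia6: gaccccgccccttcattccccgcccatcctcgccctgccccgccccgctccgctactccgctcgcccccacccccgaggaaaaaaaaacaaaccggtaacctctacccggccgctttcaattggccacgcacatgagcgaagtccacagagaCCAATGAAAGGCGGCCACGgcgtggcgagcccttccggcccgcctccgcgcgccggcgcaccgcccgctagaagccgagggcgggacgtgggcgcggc
Both windows hold a full copy, although HSPA5 was lower and PDIA6 higher in shISG20 cells. A match of letters is a description and not evidence of binding.

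Targets of ATF4 were lower on balance in shISG20 cells at 1% O2. Of 24 tested members of the ATF4 and integrated stress response list 11 were lower (45.8%) and 1 higher (4.17%). Of mouse-matched rows 15.8% were lower and 4.99% higher. The median of the list was -0.31, beside -0.113 over mouse-matched rows. The lower count was 9 to 13 when each library was left out in turn, and 6 with only the 6 libraries in the fit. PPP1R15A (ENSG00000087074), the GADD34 subunit that directs dephosphorylation of eIF2 alpha, was at 6.96, 5.56 and 5.07 TPM in shISG20 and 18.5, 17.8 and 19.8 TPM in shNTC libraries. The groups lay far apart, with 86 reads in shISG20 and 319 in shNTC cells, and PPP1R15A fell by 1.53 (SE 0.119, limma adjusted p = 4.47e-05). The cystine transporter SLC7A11 fell by 0.97 (2.58 ± 0.33 TPM in shISG20 and 5.98 ± 0.561 TPM in shNTC cells; SD, n = 3 each) and the amino acid transporter SLC7A5 by 0.66 (20.9 ± 1.68 TPM in shISG20 and 33.6 ± 2.26 TPM in shNTC cells). ATF4 RNA itself was at 235, 229 and 241 TPM in shISG20 and 309, 309 and 282 TPM in shNTC libraries and fell by 0.35 (adjusted p = 0.000773). CEBPB, a transcription factor of the same response, averaged 85.8 ± 4.92 TPM in shISG20 and 115 ± 5.5 TPM in shNTC cells and fell by 0.42. A pair of further lower members, named after their values were seen, were ATF3 (-0.85) and the CHOP gene DDIT3 (-0.52), and the higher one was PSAT1 (0.34), of serine synthesis.

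Cytosolic tRNA synthetases, several of which ATF4 is known to induce, moved in both directions, 3 higher (15%) and 7 lower (35%) of 20 tested. Their median of -0.05 turned to 0.02 under median-of-ratios size factors. AARS1, for alanine, was at 208, 227 and 217 TPM in shISG20 and 345, 352 and 321 TPM in shNTC libraries and fell by 0.64 (SE 0.063, limma adjusted p = 0.000168). NARS1 (-0.35) and WARS1 (-0.60) fell as well, whereas EPRS1, for glutamate and proline, rose by 0.37. SARS1, for serine, differed by -0.15, a call lost under median-of-ratios size factors (-0.085). Of 22 heat shock proteins and chaperonin subunits of the cytosol 2 were higher and 2 lower (9.09% each). These counts were 5 and 2 under median-of-ratios size factors and 6 and 4 by voom. The stress-inducible pair HSPA1A (17.3 ± 2.08 TPM in shISG20 and 29.6 ± 5.15 TPM in shNTC cells) and HSPA1B (4.84 ± 0.433 TPM in shISG20 and 9.33 ± 1.27 TPM in shNTC cells) fell by 0.73 and 0.82. These 2 genes are near-identical copies, so that reads cannot be assigned to either with certainty. The chaperonin subunits CCT4 and CCT2 differed by 0.17 and 0.16. CCT4 missed the threshold with only the 6 libraries in the fit (adjusted p = 0.0532) and CCT2 without shNTC replicate 1 (adjusted p = 0.0501).

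Antioxidant genes under the transcription factor NRF2 held several of the largest decreases. Of 29 tested members of the list of NRF2 targets and glutathione genes 9 were lower (31%) and 2 higher (6.9%). Of mouse-matched rows 15.8% were lower and 4.99% higher. The median of the list, -0.14, lay close to the -0.113 over mouse-matched rows. The lower count was 6 to 11 when each library was left out in turn. SRXN1 (ENSG00000271303), sulfiredoxin, which reactivates oxidised peroxiredoxins, was at 3.28, 4.34 and 3.91 TPM in shISG20 and 16.2, 15.8 and 9.87 TPM in shNTC libraries. shNTC replicate 3 was the lowest of its group but still above each shISG20 library, and SRXN1 fell by 1.60 (SE 0.223, limma adjusted p = 0.00119; 46 reads in shISG20 and 202 in shNTC cells). GCLM (ENSG00000023909), the modifier subunit of the enzyme that limits glutathione synthesis, was at 37.3, 37.7 and 38.9 TPM in shISG20 and 92.8, 105 and 98 TPM in shNTC libraries and fell by 1.35 (SE 0.07, adjusted p = 3.16e-06). HMOX1, heme oxygenase, was at 35.3, 34.2 and 31 TPM in shISG20 and 73.1, 70.8 and 63.7 TPM in shNTC libraries and fell by 1.03 (SE 0.094, adjusted p = 0.000101). GGT7, of the gamma-glutamyltransferase family, fell by 1.38, TXNRD1, a thioredoxin reductase, by 0.63 and SQSTM1, the autophagy receptor p62, by 0.63 (106 ± 2.23 TPM in shISG20 and 165 ± 11.6 TPM in shNTC cells). NFE2L2, the gene of NRF2, was not called (-0.36), and NQO1, a common marker of the pathway, was not called either (-0.26). The higher members were the glutathione peroxidase GPX4 (0.33) and the ferritin light chain FTL (0.12), both named after their values were seen.

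The core of the element bound by NRF2 with small Maf proteins was searched as TGANTCAGC, which 1.19% of the promoter windows hold. Of the members with a window it was found in 2 of 7 lower members (SRXN1 and PRDX1) and in 3 of 13 members not called. The promoter of the member with the largest decrease is shown, Srxn1 at chr2:152105274-152105523 (+ strand), with the core in capitals.
Srxn1: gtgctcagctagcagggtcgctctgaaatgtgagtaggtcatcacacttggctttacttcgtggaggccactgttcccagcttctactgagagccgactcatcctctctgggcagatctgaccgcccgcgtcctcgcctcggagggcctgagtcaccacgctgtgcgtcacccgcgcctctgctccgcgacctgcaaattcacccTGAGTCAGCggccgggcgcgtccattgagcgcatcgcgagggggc
The antioxidant response element TGACNNNGC, which leaves more bases free and is held by 12.4% of the windows, was found in 4 of 7 lower members and 4 of 13 not called. Shares of both elements among lower members and members not called rest on few genes.

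**Figure D3:**
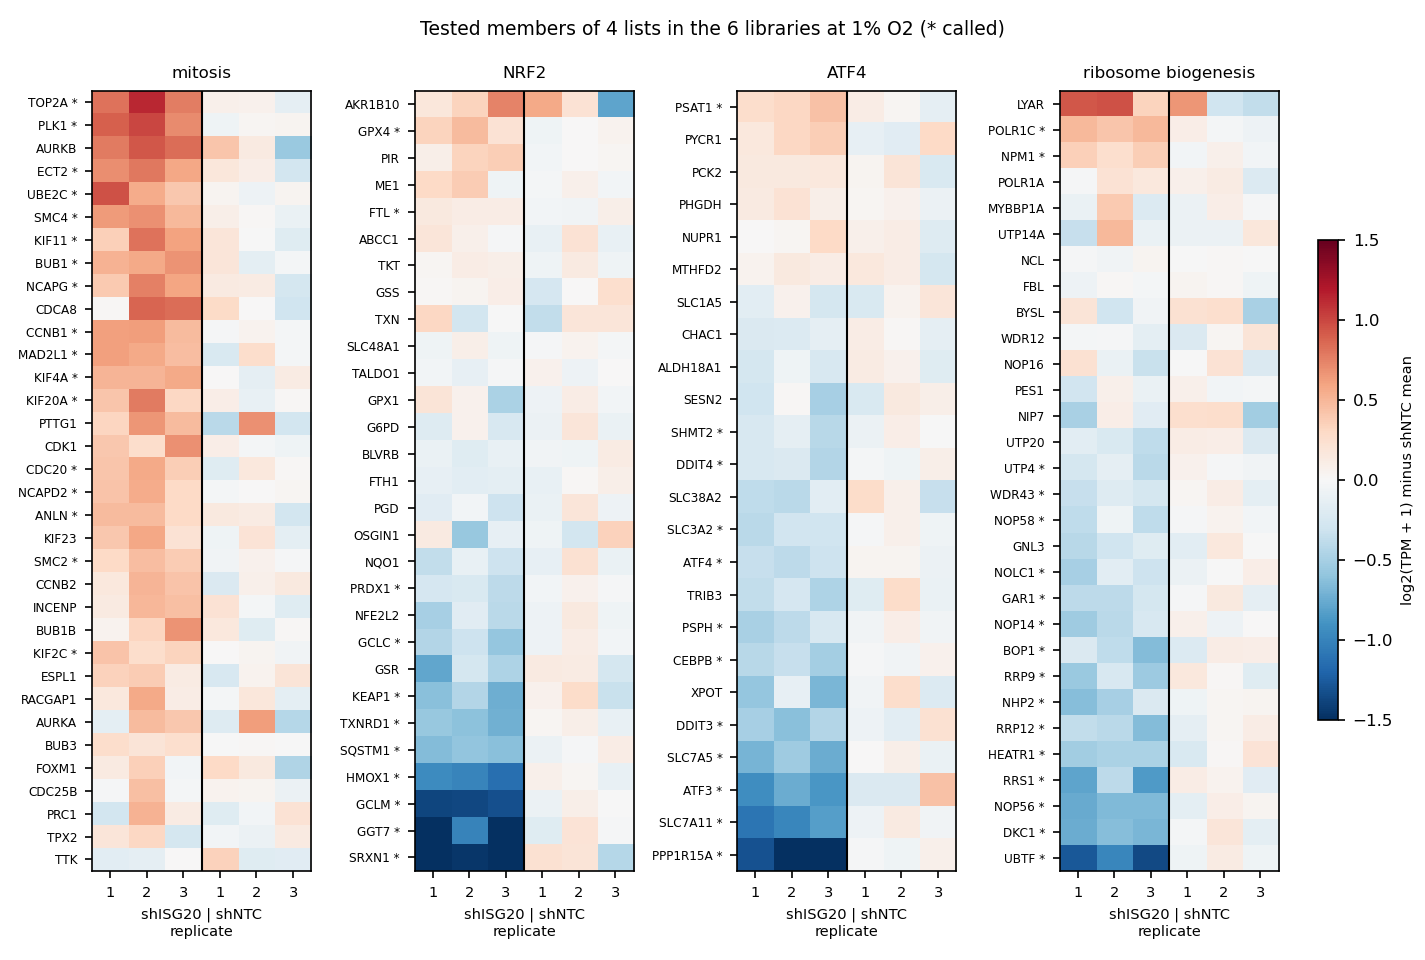
Level of each tested member of 4 lists in each of the 6 libraries at 1% O2, as log2(TPM + 1) minus the shNTC mean (red above, blue below), with shISG20 replicates left of shNTC replicates and a star at called genes. Mitosis genes are mostly red in the shISG20 columns (17 of 34 called higher), and the NRF2, ATF4 and ribosome biogenesis lists hold 9, 11 and 15 lower calls.

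Genes of protein glycosylation were called in both directions. DOLK, the kinase that makes the dolichol phosphate carrier of N-linked sugars, was at 2, 2.06 and 1.02 TPM in shISG20 and 6.82, 6.82 and 4.94 TPM in shNTC libraries and fell by 1.43 (SE 0.182, limma adjusted p = 0.000691), on 17 reads in shISG20 and 73 in shNTC cells. Subunits of the oligosaccharyltransferase, which moves the finished sugar chain to the protein, were higher: DDOST by 0.42 (251 ± 10.9 TPM in shISG20 and 187 ± 8.06 TPM in shNTC cells), RPN2 by 0.30 and STT3B by 0.19. STT3A, a catalytic subunit, differed by 0.24 and missed the threshold with only the 6 libraries in the fit (adjusted p = 0.0559). In all 4 of 23 tested N-glycosylation genes were higher (17.4%) and 3 lower (13%). The lower share is below the 15.8% of mouse-matched rows. The lower count was 1 without shNTC replicate 1, shNTC replicate 2, shISG20 replicate 2 or shISG20 replicate 3. GALNT3 (ENSG00000115339), an enzyme that begins O-linked chains, was at 70.9, 68.6 and 73.4 TPM in shISG20 and 29.8, 33.1 and 28 TPM in shNTC libraries. It rose by 1.20 (SE 0.1, adjusted p = 5.93e-05; 1543 reads in shISG20 and 784 in shNTC cells), the only higher member of 9 GALNT genes tested by limma on the deposited scale, beside 2 under median-of-ratios size factors and by voom. GALNT2 was the single lower one (-0.51), a call lost in 5 alternatives, among them those without shNTC replicate 2 (-0.44), shNTC replicate 3 (-0.48) or shISG20 replicate 1 (-0.41).

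Genes of mitosis were higher in shISG20 cells at 1% O2. Of 34 tested members 17 were higher and 0 lower by limma, with a median of 0.44 beside -0.113 over mouse-matched rows, of which 4.99% were higher. Unadjusted p-values under 0.05 gave 23 higher and 0 lower members, and by voom on the recovered reads they were 21 and 0. The count of higher members was 10 without shISG20 replicate 1 or 2, 11 without shNTC replicate 3 and 9 with only the 6 libraries in the fit. TOP2A (ENSG00000131747), the topoisomerase that untangles chromosomes, was at 93.6, 117 and 90.8 TPM in shISG20 and 55.8, 55.2 and 48.2 TPM in shNTC libraries. It rose by 0.90 (SE 0.093, adjusted p = 0.000213; 3053 reads in shISG20 and 1906 in shNTC cells). The mitotic kinase PLK1 was at 39, 42.1 and 34.1 TPM in shISG20 and 19.6, 21 and 21.1 TPM in shNTC libraries and rose by 0.86 (SE 0.102, adjusted p = 0.000462). The condensin subunit SMC4 (0.61), the cytokinesis factor ECT2 (0.69) and cyclin B1, CCNB1 (0.57), rose too. The mitotic kinases CDK1 (0.45) and AURKB (0.85) missed the threshold (adjusted p = 0.0575 and 0.056). The transcription factor FOXM1 was not called (0.15).

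Many mitotic promoters carry the cell cycle genes homology region (CHR), TTTGAA, which 17.9% of the promoter windows hold on either strand. It was found in 11 of 14 higher members with a window and in 11 of 13 members not called. Of the 34 tested members 33 had log2 fold changes above 0, so members not called are not a set without change. Whether the element bears on the increase was not tested. The promoters of Top2a at chr11:99024190-99024439 (- strand) and of Kif11, a spindle motor gene that was higher by 0.59, at chr19:37376132-37376381 (+ strand) are shown with each CHR copy in capitals, TTCAAA being the copy read on the other strand.
Top2a: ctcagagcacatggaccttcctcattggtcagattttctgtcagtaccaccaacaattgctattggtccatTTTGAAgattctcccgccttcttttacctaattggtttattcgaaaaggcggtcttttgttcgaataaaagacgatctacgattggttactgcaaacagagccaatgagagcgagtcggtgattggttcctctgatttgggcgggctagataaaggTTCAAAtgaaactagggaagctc
Kif11: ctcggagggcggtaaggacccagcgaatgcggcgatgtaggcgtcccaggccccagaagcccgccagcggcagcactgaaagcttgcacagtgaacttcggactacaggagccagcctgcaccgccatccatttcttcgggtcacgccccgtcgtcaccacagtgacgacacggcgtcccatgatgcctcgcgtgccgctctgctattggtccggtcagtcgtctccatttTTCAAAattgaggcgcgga
The window of Top2a holds 2 copies and that of Kif11 holds 1, close before the start. Kif11 was chosen after its value was seen.

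In the list of DNA replication and S phase fewer members were called. Of 37 tested members 7 were higher (18.9%) and 1 lower (2.7%), with a median of 0.09. The higher count was 4 without shNTC replicate 1 or 2 and 3 without shISG20 replicate 2 or 3. Cyclin A2, CCNA2, was at 41.7, 40.7 and 46.2 TPM in shISG20 and 25.3, 27 and 15.1 TPM in shNTC libraries and rose by 0.94 (SE 0.187, limma adjusted p = 0.00729). RRM1, the large subunit of ribonucleotide reductase, averaged 52.3 ± 3.72 TPM in shISG20 and 34.9 ± 4.15 TPM in shNTC cells (SD, n = 3 each) and rose by 0.58. Its partner RRM2 stood higher by 0.57, a call lost with only the 6 libraries in the fit (adjusted p = 0.0684). FEN1, the flap endonuclease of lagging strand synthesis, was the lower member, at 9.16, 8.86 and 6.42 TPM in shISG20 and 17.9, 14.2 and 16.9 TPM in shNTC libraries (-0.93, SE 0.147, adjusted p = 0.00233). GINS2, of the replicative helicase, had 34 reads in shISG20 and 11 in shNTC cells, and its call (1.00) was lost with a pseudocount of 0.1 TPM and without any 1 library other than shNTC replicate 3 (0.91 to 1.04).

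Genes of nucleotide synthesis were higher in part, 6 of 18 tested (33.3%), with 2 lower (11.1%) and a median of 0.11. CTPS1 (ENSG00000171793), which makes CTP from UTP, was at 57.9, 58.3 and 61.8 TPM in shISG20 and 31.6, 30.3 and 26.2 TPM in shNTC libraries and rose by 0.99 (SE 0.069, limma adjusted p = 2.14e-05). UCK2, of pyrimidine salvage, averaged 69.1 ± 0.976 TPM in shISG20 and 50.1 ± 0.93 TPM in shNTC cells and rose by 0.46, ADSS2, of AMP synthesis, by 0.38, IMPDH2, of GTP synthesis, by 0.40, and CAD, which begins pyrimidine synthesis, by 0.35. Without any 1 library the count of higher members was 5 or 6. Of 19 p53 targets 1 was higher (5.26%) and 2 lower (10.5%). Mouse-matched rows were higher in 4.99% and lower in 15.8%, so this list does not stand out. The nuclease AEN, a relative of ISG20, averaged 4.93 ± 0.487 TPM in shISG20 and 7.76 ± 0.206 TPM in shNTC cells and fell by 0.57 (adjusted p = 0.00772). The calls of BAX (-0.23) and GADD45A (0.17) were each lost without shNTC replicate 1 (-0.25 and 0.16), shNTC replicate 2 (-0.22 and 0.15) or shISG20 replicate 1 (-0.22 and 0.15), among other alternatives.

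CCN1 and other proteins that cells secrete into the matrix were higher in shISG20 cells. CCN1 (ENSG00000142871), a matricellular protein and a target of the YAP and TEAD transcription factors, was at 3312, 3228 and 3493 TPM in shISG20 and 1756, 1626 and 1456 TPM in shNTC libraries. It rose by 1.06 (SE 0.064, limma adjusted p = 9.6e-06; 38698 reads in shISG20 and 22201 in shNTC cells). CCN2, of the same family, was at 431, 498 and 427 TPM in shISG20 and 280, 305 and 237 TPM in shNTC libraries and rose by 0.72 (SE 0.091, adjusted p = 0.00065). The laminin chains LAMB1 (150 ± 9.67 TPM in shISG20 and 97.1 ± 8.42 TPM in shNTC cells) and LAMC1 (55.1 ± 3.04 TPM in shISG20 and 36.6 ± 2.78 TPM in shNTC cells) rose by 0.63 and 0.58. SPARC, a collagen-binding protein, averaged 182 ± 6.9 TPM in shISG20 and 122 ± 10.5 TPM in shNTC cells and rose by 0.58. Of 17 tested laminins, matricellular proteins and proteoglycans 8 were higher (47.1%) and 2 lower (11.8%), with a median of 0.40. Without shISG20 replicate 2 or without replicate 3, 5 were higher. Collagens did not follow: 1 of 14 was higher (7.14%) and 2 were lower (14.3%), with a median of -0.01. Mouse-matched rows were higher in 4.99% and lower in 15.8%, so the collagen counts do not stand out. COL6A2, of type VI collagen, fell by 1.12 on 30 reads in shISG20 and 112 in shNTC cells, while COL1A2 stood at 764 ± 55.5 TPM in shISG20 and 575 ± 74.5 TPM in shNTC cells (0.42, a call lost with only the 6 libraries, adjusted p = 0.0548). COL12A1 differed by -0.39, a call lost without shNTC replicate 2 (-0.33) or shISG20 replicate 1 (-0.32).

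Of 22 tested YAP and TEAD targets and pathway genes 5 were higher (22.7%) and 2 lower (9.09%), with a median of 0.06. ANKRD1, a muscle ankyrin repeat protein widely used as a YAP readout, was at 213, 228 and 235 TPM in shISG20 and 164, 146 and 119 TPM in shNTC libraries and rose by 0.66 (SE 0.1, limma adjusted p = 0.00183). The receptor kinase AXL averaged 213 ± 10.1 TPM in shISG20 and 162 ± 15.4 TPM in shNTC cells and rose by 0.40. ASAP1, an ARF GTPase-activating protein, went the other way, at 19.1, 24.1 and 20.3 TPM in shISG20 and 50.1, 51.3 and 39.4 TPM in shNTC libraries (-1.11, SE 0.112, adjusted p = 0.000187). YAP1 (-0.39) and TEAD1 (0.27) were not called. The TEAD motif GGAATG, held by 14.7% of the windows, was found in 4 of 4 higher members with a window, 0 of 1 lower member and 7 of 12 not called. The promoters of Ccn1 at chr3:145649986-145650235 (- strand) and Ankrd1 at chr19:36119845-36120094 (- strand) are shown with the motif in capitals, CATTCC being the copy read on the other strand.
Ccn1: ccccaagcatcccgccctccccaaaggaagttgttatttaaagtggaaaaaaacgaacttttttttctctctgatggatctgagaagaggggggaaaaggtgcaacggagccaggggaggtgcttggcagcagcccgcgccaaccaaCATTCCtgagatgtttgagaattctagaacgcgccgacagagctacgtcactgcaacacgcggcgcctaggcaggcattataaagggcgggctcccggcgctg
Ankrd1: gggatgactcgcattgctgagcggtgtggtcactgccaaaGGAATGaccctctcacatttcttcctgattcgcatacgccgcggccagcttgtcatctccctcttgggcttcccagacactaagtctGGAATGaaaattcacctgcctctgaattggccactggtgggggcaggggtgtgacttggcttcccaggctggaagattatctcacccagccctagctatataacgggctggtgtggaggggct
Ccn1 holds 1 copy and Ankrd1 holds 2 in these windows. With few members per class these shares are descriptions of the windows.

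Among genes of TGF-beta, activin and BMP signalling 4 of 27 were higher and 4 lower, 14.8% each (8 and 6 by voom). Of mouse-matched rows 4.99% were higher and 15.8% lower, so the lower count does not stand out. Ligands and their antagonist stood at both ends. Follistatin, FST, which binds and blocks activin, was at 85.2, 105 and 97.2 TPM in shISG20 and 55.6, 44.3 and 35.1 TPM in shNTC libraries and rose by 1.09 (SE 0.136, limma adjusted p = 0.000623). The ligand TGFB2 averaged 12.9 ± 0.978 TPM in shISG20 and 6.49 ± 0.964 TPM in shNTC cells and rose by 0.90, whereas TGFB3 averaged 2.87 ± 0.309 TPM in shISG20 and 5.63 ± 0.977 TPM in shNTC cells and fell by 0.77. The receptor ACVR1 fell by 0.44, and the target ID2, an inhibitor of helix-loop-helix factors, rose by 0.51. Of 36 actin cytoskeleton genes 12 were higher (33.3%) and 4 lower (11.1%), with a median of 0.09. Both under median-of-ratios size factors and by voom 18 were higher. The cofilin CFL2, which severs actin filaments, was at 62.7, 63.8 and 60.3 TPM in shISG20 and 33.2, 30.6 and 30.2 TPM in shNTC libraries and rose by 0.97 (SE 0.081, adjusted p = 6.21e-05). The myosin light chain MYL6 (0.37) and the calponin CNN2 (0.52) rose, and tropomyosin TPM3 fell by 0.46. TMSB4X, an actin-sequestering thymosin, was higher by 0.98 and is uncertain because many pseudogene copies can share its reads. Of 15 integrin and focal adhesion genes the integrins ITGB5 (0.46) and ITGA5 (0.37) rose, ITGB7 fell by 0.59, and the adaptor BCAR1 differed by -0.36, which missed the threshold with only the 6 libraries (adjusted p = 0.0601). The 2 higher and 2 lower members of that list are 13.3% each, beside 4.99% and 15.8% of mouse-matched rows. They became 6 and 2 under median-of-ratios size factors and 8 and 2 by voom. Outside the lists, the small GTPase RHOB (ENSG00000143878) was at 111, 110 and 104 TPM in shISG20 and 243, 255 and 257 TPM in shNTC libraries and fell by 1.21 (SE 0.073, adjusted p = 9.6e-06).

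Early genes of growth-factor signalling were lower in part in shISG20 cells at 1% O2, 13 of 32 tested (40.6%), with 1 higher (3.12%). Mouse-matched rows were lower in 15.8% and higher in 4.99%. The median of the list was -0.27. Leaving out each library in turn gave 9 to 13 lower members, and only the 6 libraries in the fit gave 7. MYC (ENSG00000136997) was at 27.7, 35.1 and 31.6 TPM in shISG20 and 46.8, 56.9 and 51.2 TPM in shNTC libraries and fell by 0.70 (SE 0.102, limma adjusted p = 0.00152). JUND, of the AP-1 family, averaged 226 ± 23.1 TPM in shISG20 and 330 ± 5.94 TPM in shNTC cells and fell by 0.55. SPRY2, a feedback inhibitor of receptor kinase signalling, was at 88.1, 80.7 and 77.1 TPM in shISG20 and 130, 124 and 133 TPM in shNTC libraries and fell by 0.65 (SE 0.061, adjusted p = 0.000108). The zinc finger factor KLF6 fell by 0.52 and the antiproliferative BTG1 by 0.35.

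Ribosome biogenesis, a process that MYC is known to drive, had 15 lower and 2 higher members of 30 tested, with a median of -0.27. These are 50% lower and 6.67% higher, beside 15.8% and 4.99% of mouse-matched rows. The lower count varied with the libraries and settings: it was 9 without shNTC replicate 1 or 3, 6 without shNTC replicate 2 or shISG20 replicate 1, 8 without shISG20 replicate 3, and 4 with only the 6 libraries. Under quantile normalization it was 7, and it was 9 under median-of-ratios size factors and by voom. UBTF (ENSG00000108312), which organises ribosomal DNA for transcription, was at 14.5, 18 and 13.6 TPM in shISG20 and 34.7, 39.8 and 34.8 TPM in shNTC libraries and fell by 1.20 (SE 0.096, limma adjusted p = 5.53e-05). NOP56, a core protein of box C/D particles, was at 27, 29 and 28.8 TPM in shISG20 and 41.9, 49.9 and 47.6 TPM in shNTC libraries and fell by 0.69 (SE 0.07, adjusted p = 0.00019). Dyskerin, DKC1, of box H/ACA particles, fell by 0.69 and the assembly factor RRS1 by 0.67. POLR1C, a subunit shared by RNA polymerases I and III, rose by 0.46 (55.2 ± 1.43 TPM in shISG20 and 39.8 ± 2.7 TPM in shNTC cells). The E-box CACGTG, a MYC-binding sequence held by 7.15% of the windows, was found in 2 of 12 lower members with a window and 3 of 12 not called.

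Splicing factors were also lower in part. Of 21 serine-arginine splicing factors and partners 8 were lower (38.1%, beside 15.8% of mouse-matched rows) and 0 higher by limma, with a median of -0.18. By voom 9 were lower and 1 higher, at an unadjusted p under 0.05 these counts were 12 and 1, and without any 1 library 7 to 10 were lower. SON, a large nuclear speckle protein, was at 31.3, 38.1 and 33 TPM in shISG20 and 67.9, 73.7 and 57.4 TPM in shNTC libraries and fell by 0.93 (SE 0.092, limma adjusted p = 0.000168). SRSF5 averaged 290 ± 15.8 TPM in shISG20 and 406 ± 15.8 TPM in shNTC cells and fell by 0.49, SRSF2 fell by 0.57, SRSF3 by 0.41 and TRA2B by 0.40. Of 44 genes of RNA decay and 3' to 5' exonucleases 7 were lower and 1 higher, with a median of -0.19. That is 15.9% lower, beside 15.8% over mouse-matched rows, so the count of this list does not stand out. The nuclear 5' exonuclease XRN2 averaged 218 ± 4.56 TPM in shISG20 and 255 ± 3.92 TPM in shNTC cells and fell by 0.23, and the 3' exonuclease ERI3 fell by 0.54. The deadenylase subunits CNOT2 and CNOT6 fell by 0.54 and 0.34, and the decapping factor DCP1A by 1.03 on 88 reads in shISG20 and 243 in shNTC cells. PABPC1, the cytoplasmic poly(A)-binding protein, was at 7459, 7798 and 7827 TPM in shISG20 and 6155, 5992 and 5934 TPM in shNTC libraries and rose by 0.35 (SE 0.024, adjusted p = 2.08e-05).

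HIF targets and glycolysis, the textbook programme of low oxygen, were lower in part in shISG20 cells. Of 22 glycolysis and glucose uptake genes 8 were lower and 1 higher, with a median of -0.14 beside -0.113 over mouse-matched rows. That is 36.4% lower, beside 15.8% over mouse-matched rows. Phosphoglycerate mutase, PGAM1 (ENSG00000171314), was at 280, 299 and 276 TPM in shISG20 and 531, 559 and 533 TPM in shNTC libraries and fell by 0.92 (SE 0.067, limma adjusted p = 2.97e-05). Hexokinase 2, HK2, averaged 43.3 ± 5.46 TPM in shISG20 and 61.5 ± 3.07 TPM in shNTC cells and fell by 0.50, and TPI1 fell by 0.32. GAPDH differed by -0.34 (9366 ± 195 TPM in shISG20 and 11864 ± 535 TPM in shNTC cells), a call lost under quantile normalization, which gives rows of the same rank the same value in every library and so sets the difference of a top-ranked row at 0. Phosphoglycerate kinase, PGK1, was the higher member, at 4770, 4690 and 4903 TPM in shISG20 and 4353, 4191 and 3928 TPM in shNTC libraries (0.20, adjusted p = 0.00514). Of 29 other HIF targets and HIF subunits 9 were lower (31%) and 3 higher (10.3%), with a median of -0.13. Of these genes 7 to 9 were lower when each library was left out. The medians of both lists lay close to that over mouse-matched rows. HIF1A RNA was at 70.2, 77.2 and 67.4 TPM in shISG20 and 104, 107 and 95.8 TPM in shNTC libraries and fell by 0.51 (SE 0.068, adjusted p = 0.000895). The stress gene NDRG1 averaged 54.4 ± 2.13 TPM in shISG20 and 87.2 ± 8.14 TPM in shNTC cells and fell by 0.67, and the angiogenic factor VEGFA was at 140, 135 and 139 TPM in shISG20 and 184, 175 and 169 TPM in shNTC libraries and fell by 0.35. P4HA1, a collagen prolyl hydroxylase, was at 285, 271 and 309 TPM in shISG20 and 216, 207 and 193 TPM in shNTC libraries and rose by 0.49 (SE 0.075, adjusted p = 0.00209).

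Mitochondrial genes did not move as a block. Of 21 citric acid cycle and pyruvate dehydrogenase genes 5 were lower (23.8%) and 2 higher (9.52%), with a median of -0.18. The lower count was 3 without shNTC replicate 2, shISG20 replicate 1 or shISG20 replicate 3. IDH2, the mitochondrial NADP-dependent isocitrate dehydrogenase, was at 114, 116 and 109 TPM in shISG20 and 207, 216 and 189 TPM in shNTC libraries and fell by 0.85 (SE 0.078, limma adjusted p = 0.000102). MDH2, malate dehydrogenase, fell by 0.27. The calls of OGDH (-0.39), SUCLA2 (-0.51) and IDH3G (0.21) were lost with only the 6 libraries, OGDH also without shNTC replicate 2 (-0.36), shISG20 replicate 1 (-0.34) or shISG20 replicate 3 (-0.33), and IDH3G also without shNTC replicate 1 (0.19) or shISG20 replicate 1 (0.20). Of 28 nuclear genes of oxidative phosphorylation 2 were higher (7.14%) and 3 lower (10.7%), beside 4.99% and 15.8% of mouse-matched rows. ATP5F1B, of ATP synthase, was at 2774, 2839 and 2774 TPM in shISG20 and 2235, 2256 and 2192 TPM in shNTC libraries and rose by 0.33 (SE 0.021, adjusted p = 1.18e-05). The complex II subunits SDHB (-0.46) and SDHA (-0.80; 58 reads in shISG20 and 152 in shNTC cells) fell. Of 28 mitochondrial ribosomal proteins 2 were higher and 2 lower (7.14% each). The lower count was 0 without shNTC replicate 1, 2 or 3, without shISG20 replicate 1 and under quantile normalization. With only the 6 libraries in the fit 0 were higher and 1 lower. Pyruvate carboxylase, PC, rose by 1.08 (6.84 ± 0.442 TPM in shISG20 and 2.77 ± 0.841 TPM in shNTC cells), and OXCT1, which uses ketone bodies, rose by 0.90 (40.3 ± 2.02 TPM in shISG20 and 21.2 ± 2.6 TPM in shNTC cells). Of 21 cholesterol synthesis genes 4 were higher (19%) and 0 lower by limma, with a median of 0.23. These counts were 10 and 1 both by voom and at an unadjusted p under 0.05. The higher count was 1 without shNTC replicate 1, shNTC replicate 2 or shISG20 replicate 2, and FDFT1, squalene synthase, was the member that kept its call in each alternative (18.4 ± 0.543 TPM in shISG20 and 12.7 ± 0.633 TPM in shNTC cells, 0.51, adjusted p = 0.00453). Of 19 fatty acid and lipid droplet genes ACSL3 was higher (0.33), a call lost without shNTC replicate 2 (0.33) or shISG20 replicate 3 (0.32), and 0 were lower by limma. At an unadjusted p under 0.05 these counts were 6 and 1, and voom gave 5 and 1. Median-of-ratios size factors gave 4 and 0, as did quantile normalization.

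Inflammatory and interferon genes could be seen only in part, since many immune genes were near 0 on the human rows. Of 17 tested NF-kappaB genes 5 were higher (29.4%) and 1 lower (5.88%), with a median of 0.03. The higher count was 3 without shNTC replicate 2 or 3 and 2 without shISG20 replicate 3. NFKBIA (ENSG00000100906), the inhibitor that NF-kappaB itself induces, was at 189, 187 and 201 TPM in shISG20 and 122, 104 and 104 TPM in shNTC libraries and rose by 0.80 (SE 0.075, limma adjusted p = 0.00012). CSF1, the macrophage growth factor, averaged 38.5 ± 3.06 TPM in shISG20 and 24.2 ± 2.28 TPM in shNTC cells and rose by 0.65, the only call among 8 secreted immune factors and checkpoint genes tested. TNFAIP2, induced by TNF, fell by 0.54. BCL3, an atypical inhibitor of the family, was higher by 1.27, a call lost without shNTC replicate 2 (0.99) or shISG20 replicate 3 (1.02). Of 15 interferon-stimulated genes 0 were higher and 2 lower (13.3%) by limma. These were ISG20 itself and ADAR, which edits double-stranded RNA (-0.78, lost with only the 6 libraries, adjusted p = 0.0643). By voom 1 was higher and 2 were lower, and unadjusted p-values under 0.05 gave 2 and 3. ADAR was also the single call among 10 nucleic acid sensing genes. Of 17 genes of antigen presentation by MHC class I 5 were higher (29.4%) and 2 lower (11.8%), 3 of the higher ones being ER chaperones named above. The proteasome activator subunit PSME2 rose by 0.42 and PSME3 fell by 0.58. The higher count was 2 without shNTC replicate 2 or shISG20 replicate 3, and TAPBP (0.73), tapasin, was among the calls lost there (0.68 and 0.74). Of 30 proteasome genes 4 were lower, PSMC4 (-0.51), PSMC2 (-0.41), PSMD7 (-0.49) and PSMB3 (-0.31), and 0 were higher by limma. The lower share of 13.3% is below the 15.8% of mouse-matched rows. Higher and lower counts were 5 and 4 both under median-of-ratios size factors and by voom, and 5 and 10 at an unadjusted p under 0.05. Of 30 lysosome and autophagy genes 5 were lower and 2 higher, with CTSA (-0.46) and BECN1 (-0.31) lower and LAMP1 (0.39) higher. These shares, 16.7% lower and 6.67% higher, are near the 15.8% and 4.99% of mouse-matched rows, so the list does not stand out. The lower count of the lysosome list was 3 without shISG20 replicate 3.

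Clock genes included 2 of the larger increases. NR1D1 (ENSG00000126368), the REV-ERB alpha repressor, was at 184, 186 and 191 TPM in shISG20 and 99.3, 78.8 and 104 TPM in shNTC libraries and rose by 0.99 (SE 0.106, limma adjusted p = 0.000269). DBP, a clock output factor, averaged 4.1 ± 0.818 TPM in shISG20 and 1.31 ± 0.462 TPM in shNTC cells and rose by 1.15, on 125 reads in shISG20 and 49 in shNTC cells. PER1, of the negative limb of the clock, rose by 0.49, and BHLHE40, a repressor that HIF also induces, was at 133, 144 and 123 TPM in shISG20 and 175, 204 and 220 TPM in shNTC libraries and fell by 0.58. Of 15 clock genes 3 were higher (20%) and 1 lower (6.67%), counts that were the same without any 1 library, with a median of -0.02. Among the remaining large decreases were the sulfotransferase CHST14 (-1.28), the cilium transport protein IFT43 (-1.24), the membrane scaffold SLC9A3R1 (-1.24), the exocyst subunit EXOC1 (-1.22), SSBP4 (-1.22) and the carnitine-family transporter SLC22A4 (-1.21), each on 31 to 162 reads in shISG20 and 119 to 466 reads in shNTC cells. FAM126B was higher by 0.88. S100A15A had the highest log2 fold change under the naming rule (1.23) on 30 reads in shISG20 and 14 in shNTC cells, a call lost without shNTC replicate 2 (1.23), shNTC replicate 3 (1.07), shISG20 replicate 1 (0.94) or shISG20 replicate 2 (1.28). RPS27, an abundant ribosomal protein row, differed by 0.16, a call lost without shNTC replicate 1 (0.17), shNTC replicate 2 (0.13), shISG20 replicate 1 (0.15) or shISG20 replicate 3 (0.14).

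The epithelial identity given by the labels was visible only in part at 1% O2. Of the mammary epithelial marker list, 7 members, CDH1 and the claudins CLDN3, CLDN4 and CLDN7 among them, were listed at 0 in all 6 libraries, while mesenchymal VIM was at 8062, 8103 and 7973 TPM in shISG20 and 6807, 6893 and 6853 TPM in shNTC libraries. VIM was higher by 0.23 (SE 0.035, limma adjusted p = 0.00194), a call lost under quantile normalization (0.072). Such a 0 can also arise where mouse reads failed to align to the human build. Of 6 tested epithelial markers ESRP2, a splicing regulator, was lower (-0.75, lost without shNTC replicate 2, -0.68) and 0 were called higher. Of the 6, 4 had log2 fold changes above 0, and their median was 0.18. The whole epithelial list summed to 237 to 245 TPM in shISG20 and 204 to 222 TPM in shNTC libraries. Of 10 mesenchymal markers 4 were higher (40%) and 1, ZEB2 (-0.56), was lower (10%). Of 17 leucocyte markers 16 were at 0 in all 6 libraries and the list summed to 1.18 to 2.74 TPM in shISG20 and 1.7 to 3.23 TPM in shNTC libraries. Of 9 endothelial markers 8 were at 0.

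**Figure D4:**
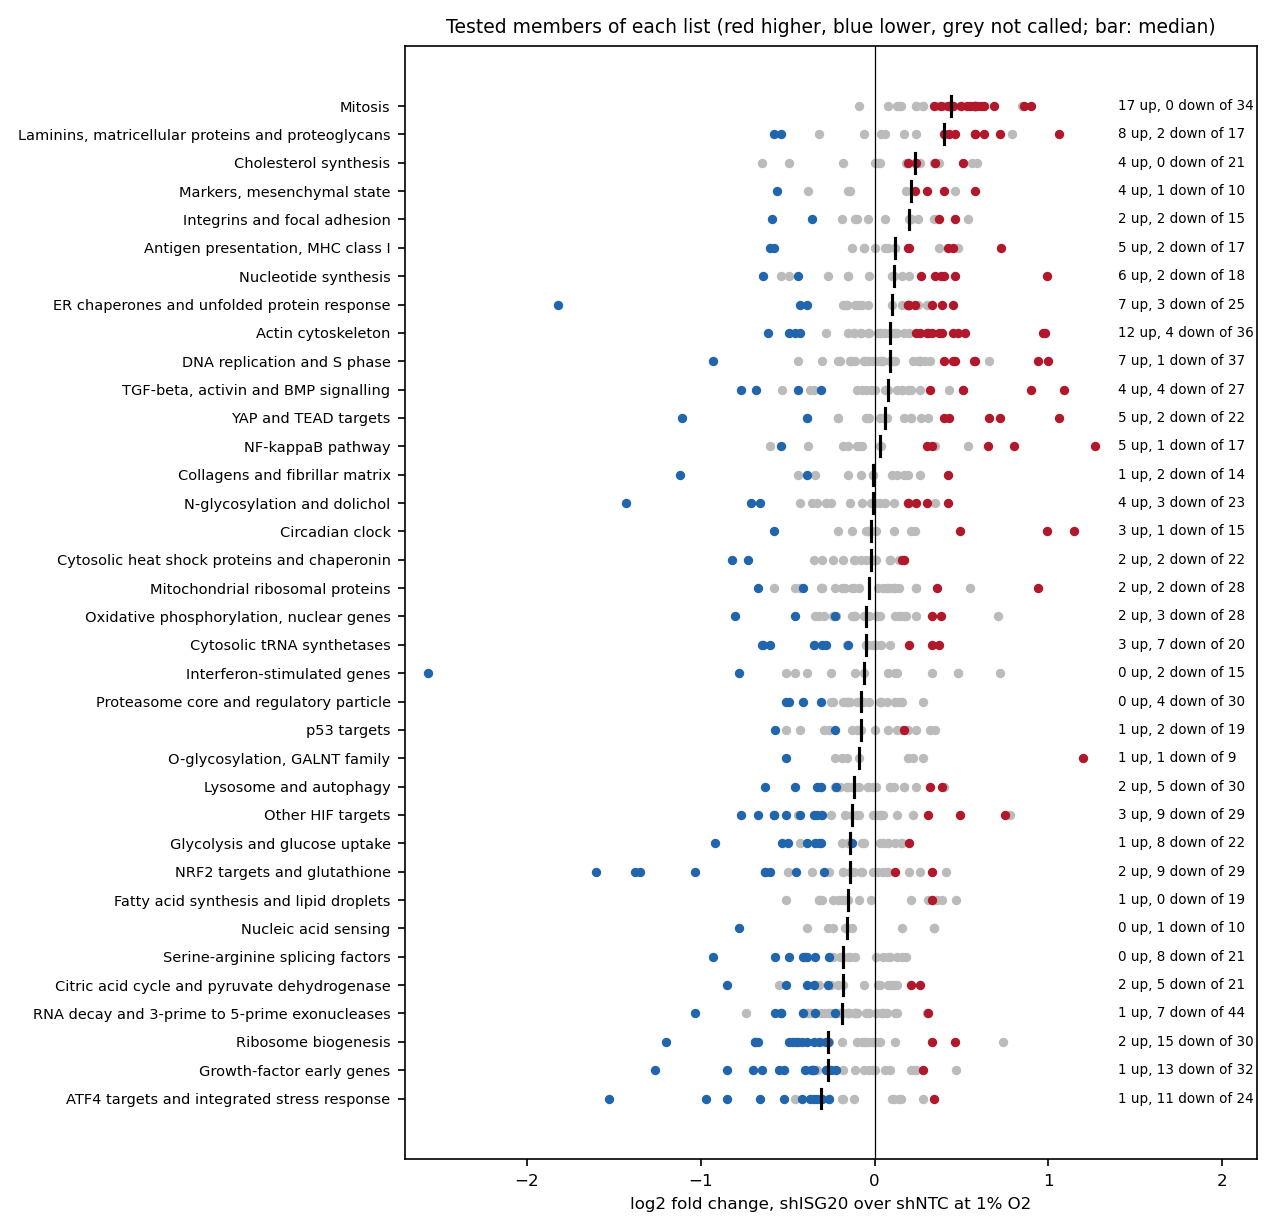
Log2 fold change of shISG20 over shNTC cells at 1% O2 for each tested member of 36 gene lists, 1 point per gene (red higher, blue lower, grey not called), with a bar at the median and the counts at the right. Mitosis has the highest median (0.44) and the ATF4 list the lowest (-0.31), and ISG20 is the lowest point.

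The knockdown comparison at 20% O2 uses the other 6 libraries, and its values over the same 12879 rows are set beside those at 1% O2. At 20% O2 724 rows were higher (5.62%) and 919 lower (7.14%). Of the 2108 rows called at 1% O2, 601 were also called at 20% O2, which is 28.5% of the calls at 1% O2 and 36.6% of those at 20% O2. Of these 487 had the same direction, 158 higher and 329 lower, and 114 had opposite directions. The difference between the effects at 1% and 20% O2, tested as an interaction in the same fit, passed for 1006 rows (7.81%), 376 higher (2.92%) and 630 lower (4.89%) at 1% O2. It was 641 without shNTC replicate 2, 659 without shISG20 replicate 3 at 20% O2 (the library labelled 484 hours) and 1913 by voom. Without that 20% O2 library 458 rows were higher and 685 lower at 20% O2. Among the 2108 rows called at 1% O2, 618 also passed this test.

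Some members moved in the same direction at both oxygen levels. HSPA5 fell by 1.82 at 1% O2 and by 2.22 at 20% O2, a difference of effects of 0.40 that passed (limma adjusted p = 0.017, and 0.0446 without the library labelled 484 hours). CCN1 rose by 1.06 at 1% O2 and 0.98 at 20% O2 (difference 0.07, adjusted p = 0.686), CFL2 by 0.97 and 0.94 (difference 0.03, adjusted p = 0.914), and VEGFA fell by 0.35 at each level. NR1D1 rose less at 1% O2 (0.99) than at 20% O2 (2.11), with a difference of -1.12 (adjusted p = 0.00237). At 20% O2 the glycolysis list had 6 lower and 4 higher members, with a median of -0.12. Other HIF targets had 9 lower and 5 higher there (6 and 3 without the library labelled 484 hours), with a median of -0.10. In each list the difference of effects passed for 5 members lower and 3 higher at 1% O2. Without that library these were 4 and 4 for glycolysis and 4 and 2 for other HIF targets.

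For other members the effects differed between the oxygen levels. The NRF2 and ATF4 lists had 9 and 11 lower calls at 1% O2 and 3 and 1 at 20% O2, and the difference of effects passed, with the lower value at 1% O2, for 7 NRF2 and 8 ATF4 members. PPP1R15A was at -1.53 at 1% O2 and -0.02 at 20% O2 (difference -1.51, limma adjusted p = 0.00104), and ATF4 at -0.35 and 0.25 (difference -0.60, adjusted p = 0.001). SRXN1 was at -1.60 and 0.13 (difference -1.74, adjusted p = 0.00943). HMOX1 fell by 1.03 at 1% O2 and rose by 0.56 at 20% O2, a difference of -1.59 (adjusted p = 0.000364). Of ribosome biogenesis genes 12 and of splicing factors 8 had lower effects at 1% O2 (8 and 6 without the library labelled 484 hours), MYC among the early genes (-0.70 at 1% O2, 0.16 at 20% O2, difference -0.86, adjusted p = 0.00649). The matrix lists differed in the opposite sense: 6 laminins and matricellular genes and 8 collagens had higher effects at 1% O2 (4 and 7 without that library). LAMB1 rose by 0.63 at 1% O2 and fell by 0.37 at 20% O2 (difference 0.99, adjusted p = 0.000988), and SPARC rose by 0.58 at 1% O2 and was lower by 0.28 at 20% O2, a call lost without the library labelled 484 hours (adjusted p = 0.0505; difference 0.86, adjusted p = 0.001). FST was at 1.09 at 1% O2 and -0.05 at 20% O2 (difference 1.14, adjusted p = 0.00654). DNA replication was called higher in 7 members at 1% O2 and 18 at 20% O2 (12 without that library), with 4 members that passed the test of the difference, each lower at 1% O2. Of the mitosis list 8 members were higher at 20% O2, and 4 had a higher effect at 1% O2 (4 and 2 without the library labelled 484 hours), SMC4 among them (0.61 and 0.08, difference 0.53, adjusted p = 0.0136).

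**Figure D5:**
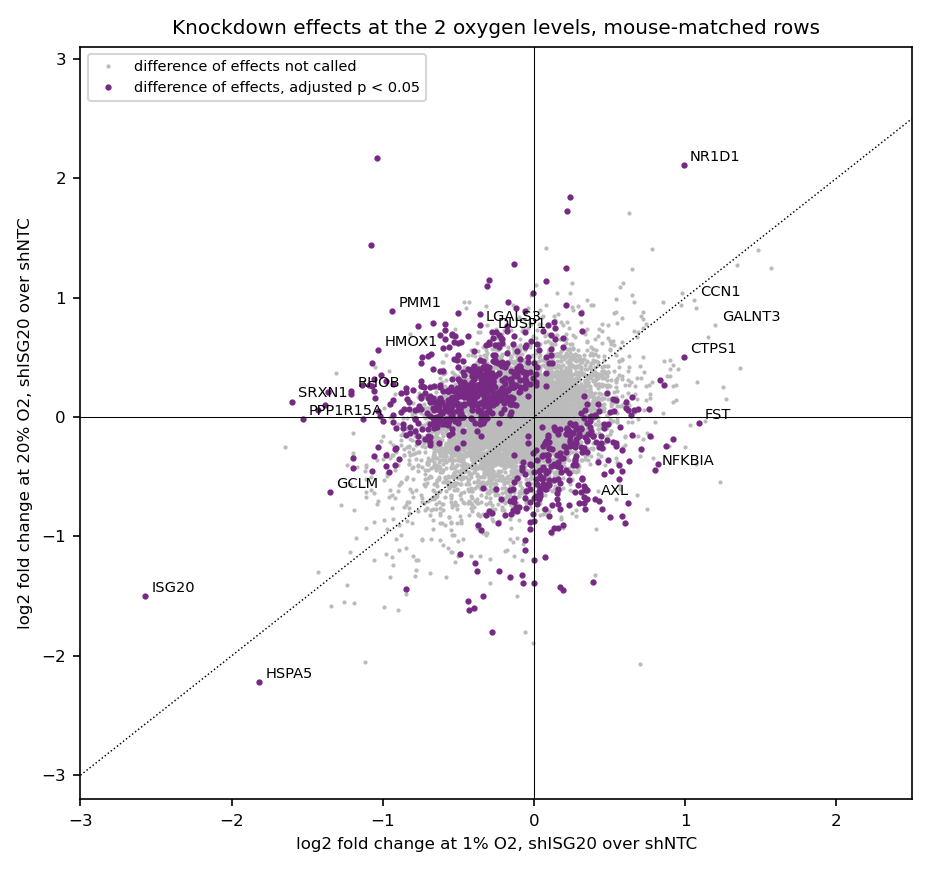
Log2 fold change of shISG20 over shNTC cells at 20% O2 (vertical) against that at 1% O2 (horizontal) for each mouse-matched row, with rows whose difference of effects was called in purple and the dotted line marking equal effects. HSPA5, CCN1 and NR1D1 lie on the same side of 0 at both levels, while PMM1, HMOX1, NFKBIA and AXL lie on opposite sides.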

How the data were processed

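The authors deposited 1 table of TPM values with 60683 human Ensembl rows and 12 library columns. The submitters' processing notes name FastQC, STAR and featureCounts with the human build GRCh38. How TPM were made from counts, and tool versions, are not given in the sources used here. RNA came from TRIzol extraction with DNase treatment, per the labels' protocols. Human rows were matched to mouse genes by symbol or synonym in the RefSeq table of GRCm38.p6, whose coordinates are given only for promoters.

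Reads behind the deposited TPM were recovered from ratios between libraries (whole numbers for 100% of rows, tolerance 1e-05), up to a common divisor per row. A row entered the tests when 3 or more of the 6 libraries at 1% O2 reached 1 TPM. The limma package 3.58.1 (R 4.3.3) fitted log2(TPM + 1) over all 12 libraries, with 1 coefficient per group and a variance trend. The same steps were tested on simulated data. Tables were made with pandas 2.3.3 and numpy 2.4.6 in Python 3.11.15, and figures with matplotlib 3.10.9. The pseudocount was 1 TPM and the threshold an adjusted p of 0.05. Errors are SD over 3 libraries or limma's SE.

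Named genes were ISG20, the 14 highest and 14 lowest called mouse-matched rows that averaged 5 TPM or more in the higher group, with no overlap of groups and a call with only the 6 libraries, the 6 most abundant such rows, up to 5 called members per list, and the 8 differences of effects with the smallest p. Rows without a mouse match were passed over, 42 among the highest and 35 among the lowest. The members, the rule and the 40 gene lists were chosen with earlier results of these data known, and lists were described by counts with no test. Same-numbered libraries did not deviate together (correlations -0.02, 0.01 and -0.01), so no block entered the fit.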

Additional observations from a re-analysis of the deposited data

Results flagged for a closer look

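The effect of the knockdown differed between 1% and 20% O2 most clearly, by the interaction test in limma, for 8 mouse-matched genes. Each difference is the effect at 1% O2 minus that at 20% O2 on the log2(TPM + 1) scale.

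PMM1, a phosphomannomutase that feeds sugar donors for glycosylation, had the smallest p of this test. At 1% O2 it was at 20.3, 20.3 and 21.5 TPM in shISG20 and 39.1, 39 and 43.8 TPM in shNTC libraries. It fell by 0.94 at 1% O2 and rose by 0.89 at 20% O2, a difference of -1.83 (limma adjusted p = 6.76e-05). RHOB fell by 1.21 at 1% O2 and was at 0.22 at 20% O2 (difference -1.43, adjusted p = 0.000225). LGALS3, the lectin galectin-3, averaged 81.9 ± 5.48 TPM in shISG20 and 105 ± 4.48 TPM in shNTC cells at 1% O2 (SD, n = 3 each). LGALS3 fell by 0.36 at 1% O2 and rose by 0.77 at 20% O2 (difference -1.13, adjusted p = 0.000225). HMOX1 fell by 1.03 at 1% O2 and rose by 0.56 at 20% O2 (difference -1.59, adjusted p = 0.000364). NFKBIA rose by 0.80 at 1% O2 and fell by 0.44 at 20% O2 (difference 1.24, adjusted p = 0.000364).

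GOT2, the mitochondrial aspartate aminotransferase, was not called at 1% O2 (108 ± 1.59 TPM in shISG20 and 117 ± 3.76 TPM in shNTC cells, -0.11, adjusted p = 0.0821) and rose by 0.55 at 20% O2, a difference of -0.66 (limma adjusted p = 0.000364). DUSP1, a phosphatase of MAP kinases, differed by -0.28 at 1% O2, a call lost without shNTC replicate 2 (-0.26) or shISG20 replicate 1 (-0.25), and rose by 0.71 at 20% O2 (difference -0.99, adjusted p = 0.000626). AXL rose by 0.40 at 1% O2 and fell by 0.69 at 20% O2 (difference 1.09, adjusted p = 0.000631).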

How the results depend on the processing

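Counts of calls moved between settings. Named genes were chosen largely by small p, and the highest, lowest and most abundant also by a call with only the 6 libraries. How many named results kept a call was therefore partly set by that choice. The rows higher in shISG20 cells at 1% O2 (644 in the reported fit) numbered 394 with only the 6 libraries at 1% O2, 1009 with median-of-ratios size factors and 1073 by voom on recovered reads, and 428 to 515 when each library at 1% O2 was left out in turn. The lower rows (1464) numbered 692 with only the 6 libraries and 804 to 1451 when each library was left out. The rows whose effect differed between oxygen levels (1006) numbered 1913 by voom and 641 to 1112 when each library was left out. Of named results, 27 lost their call with only the 6 libraries, 9 under quantile normalization, 6 with no filter on low values, 4 with median-of-ratios size factors, 2 with a pseudocount of 0.1 TPM, 1 by voom and 9 to 21 without a single library, and no direction reversed. Without shISG20 replicate 3 at 20% O2, an alternative added after the data were seen because its label gives 484 hours, 625 rows were higher, 1324 lower and 659 differed between oxygen levels, and 3 named results lost their call. Replicate numbers did not pair the libraries. With a replicate block 578 rows were higher and 1268 lower, 772 differed between oxygen levels, and 5 named results lost their call.

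The number of subclones per arm is not given, and 3 libraries a group at a depth of 3173991 to 4765241 recovered reads leave genes with few reads imprecise. Mouse reads were counted on human genes. Genes absent from the tested rows were not tested and cannot be called unchanged. Whether they had little RNA or reads that failed to align cannot be told apart here.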
